A study of Mus musculus with 12 samples.

Results

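The genes described here encode the alpha subunits of the voltage-gated potassium (Kv) channels. They were chosen by symbol alone: every listed gene whose name is Kcna, Kcnb, Kcnc, Kcnd, Kcnf, Kcng, Kcnh, Kcnq, Kcns or Kcnv followed by a number. This gave 40 of the 23183 genes, in 10 subfamilies. RNA of the cortex and of the hippocampus was sequenced from male C57BL/6 mice 3 months after a single cranial X-ray dose of 10 Gy (IR) or after sham irradiation (Con). The mice were bought at 7 weeks of age and were kept for 1 week before treatment. Each tissue had 3 Con and 3 IR libraries, which makes 12 in all, and the labels do not say whether libraries of one group, or same-numbered libraries of the tissues, came from separate animals. The p-values below therefore measure the spread between these libraries, which may be in part technical.

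As background, a Kv channel is a tetramer of alpha subunits that opens when the membrane depolarizes and lets potassium leave the cell, which repolarizes the neuron. Kcna subunits sit along axons and at terminals, Kcnb subunits form the delayed rectifier of cell bodies and proximal dendrites, Kcnc subunits serve fast firing, Kcnd subunits carry the transient dendritic current, Kcnh subunits form the ether-a-go-go channels, and Kcnq subunits carry the slow M current. The 10 silent subunits (Kcnf1, Kcng1 to Kcng4, Kcns1 to Kcns3, Kcnv1 and Kcnv2) form no working channel by themselves. They join Kcnb subunits and change the gating of the mixed channel.

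Values are fragments per kilobase scaled to library size (FPKM), a level per transcript length, so that genes can be set side by side. The summed FPKM of a library ranged from 359773 to 393447. The depth in reads is unknown. The tissue labels matched their markers: the summed FPKM of 7 hippocampal markers was 6.21 to 11.3 in cortex Con and 147 to 167 in hippocampus Con libraries, and 7 cortical markers summed to 215 to 266 and 68.3 to 81.8. In hippocampus 7 of 7 hippocampal markers were higher and 6 of 7 cortical ones lower, while Etv1 was not (20.1 against 23.1 FPKM). Of 5 thalamic markers, 2 were higher and 2 lower, with mean Lhx9 at 0.0403 against 6.61 FPKM and Slc17a6 at 8.44 against 1.42. The tissues also differed in neuron markers. The 6 markers of GABA neurons summed to 615 to 652 FPKM in cortex Con against 359 to 509 in hippocampus Con, with 3 of 6 lower in hippocampus, and the 3 markers of excitatory neurons to 1283 to 1404 against 1793 to 1982, with 3 of 3 higher. In hippocampus against cortex among Con libraries 3 of 4 astrocyte markers were higher and 1 was lower, and no gene of these lists was at 0 throughout a group. The part of these markers in the regional results was not tested, and in bulk tissue fewer cells of a type and less RNA per cell cannot be told apart. The value headings of the cortex and of the hippocampus libraries end in different digits, so tissue and any processing run that these stand for cannot be told apart.

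Most Kv genes were expressed in both tissues. In cortex Con 19 of the 40 had a mean of at least 10 FPKM, 14 lay between 1 and 10, and 7 were below 1. The hippocampus Con libraries gave 19, 10 and 11. Among the abundant genes, Kcnh3 stood at 56.6 ± 4.34 FPKM in cortex Con (SD, n = 3), Kcnc1 at 51.0 ± 8.37 and Kcna2 at 38.1 ± 2.45, and the gap between Kcnh3 and Kcnc1 was smaller than the SD of Kcnc1. In hippocampus Con, Kcnc1 stood at 42.0 ± 0.345, Kcnd2 at 36.1 ± 3.04 and Kcna1 at 31.0 ± 1.66, and these differed by more than 1 SD. At the low end, Kcna7, Kcna10, Kcnh8, Kcnq1 and Kcnv2 did not pass the filter of 0.5 FPKM in 3 libraries of any fit, and their levels ranged from 0 to 0.262 FPKM over the 12 libraries.

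**Figure D1:**
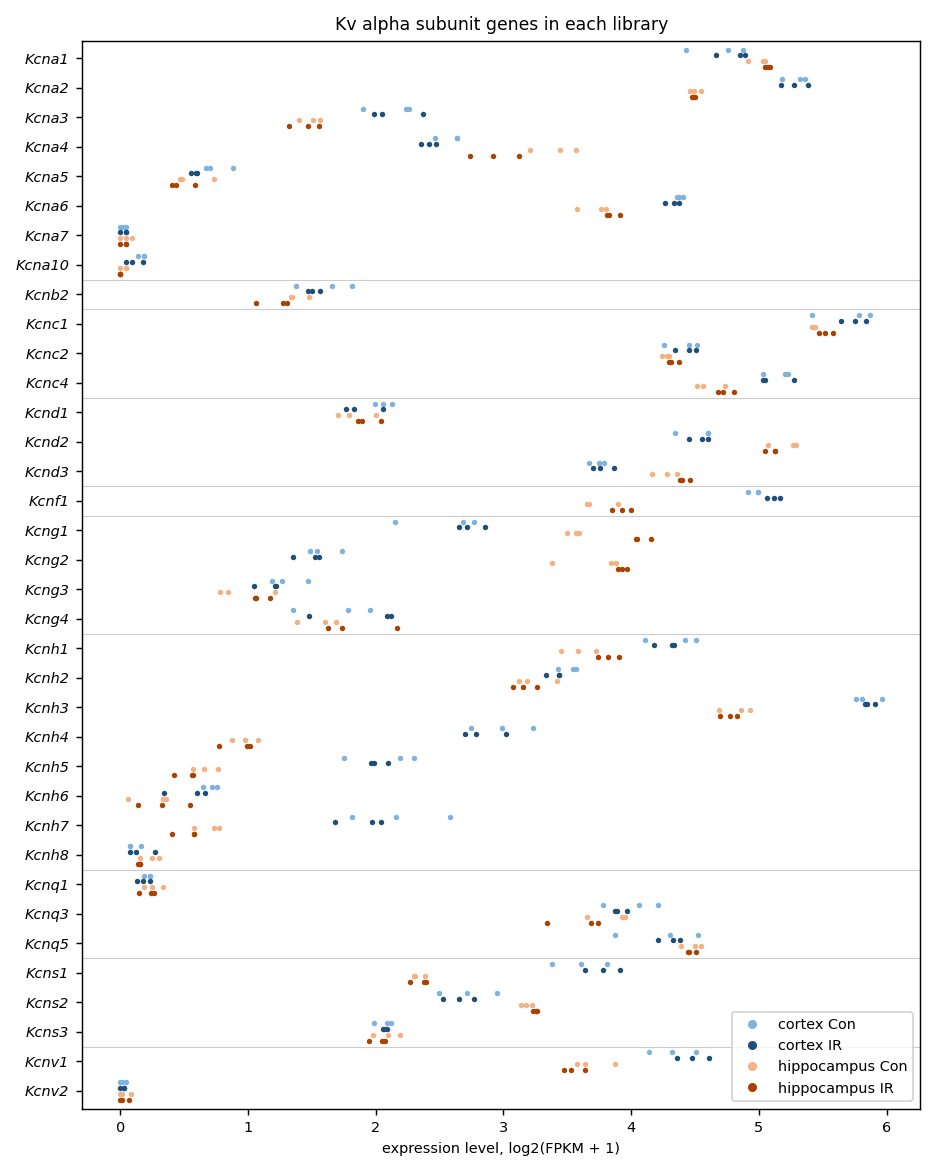
Level of Kv alpha subunit genes in each of the 12 libraries, as log2(FPKM + 1), with 1 point per library and colours for the 4 groups. The points of Kcng2, Kcnf1 and Kcnh4 separate by tissue.

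Among the Con libraries, 23 of the 35 Kv genes tested differed between hippocampus and cortex at an adjusted p under 0.05 (limma on log2(FPKM + 1), adjusted over all 14169 genes tested), 8 higher and 15 lower in hippocampus. Over all genes tested the same rule called 36.3%, with 19% higher and 17.3% lower. Kcna4, Kcnd2, Kcnd3, Kcng1, Kcng2 and Kcns2 were among those higher in hippocampus. The median log2 fold change of the 35 was -0.26, against 0.02 over all genes, and the median absolute value was 0.61 against 0.21. The groups did not overlap for 25 of the 35 (49.8% over all genes). Kcna5, Kcnh5, Kcnh6 and Kcnh7 entered these counts through their cortex libraries alone, since fewer than 3 hippocampus libraries reached 0.5 FPKM, and a gene admitted in this way is more likely to be called. Without these 4, 20 of 31 passed, 8 higher and 12 lower, the groups did not overlap for 22, and the median log2 fold change was -0.23.

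Of the 4 ether-a-go-go genes that passed the filter in each tissue, 3 were lower in hippocampus (17.3% of all genes were) and the other missed the threshold. Kcnh4, a subunit of the elk type, stood at 8.41, 5.72 and 6.95 FPKM in cortex Con and at 0.839, 0.964 and 1.12 in hippocampus Con, a log2 fold change of -2.01 (SE 0.131, adjusted p = 3.86e-06). Kcnh3, of the same type and the most abundant of the subfamily, gave 61.5, 53.2 and 55.1 against 29.4, 24.8 and 28.1, a log2 fold change of -1.02 (SE 0.0900, adjusted p = 2.58e-05). Every hippocampal value of these genes was below every cortical one. The eag subunit Kcnh1 had 21.8, 16.3 and 20.4 against 9.92, 12.2 and 11 FPKM, with no overlap, and differed by -0.76 in log2 terms (adjusted p = 0.000784). Kcnh2 was the gene that did not pass (-0.27, adjusted p = 0.0521). The 3 genes that passed the filter through cortex alone are given as levels, with no test. Kcnh7, of the erg type, stood at 3.46, 2.52 and 4.99 FPKM in cortex Con and 0.662, 0.495 and 0.711 in hippocampus Con, a ratio of means of 0.170. Kcnh5, of the eag type, stood at 3.92, 2.37 and 3.58 in cortex and 0.484, 0.576 and 0.704 in hippocampus, a ratio of 0.179. Kcnh6 stood at 0.648, 0.564 and 0.688 in cortex and 0.280, 0.0422 and 0.262 in hippocampus. Because 1 was added to each FPKM before taking logs, log2 fold changes understate the change of low genes: the ratio of means was 0.138 for Kcnh4.

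Among the silent subunits, 6 of the 9 tested differed between the tissues (36.3% of all genes did), 3 in each direction. Of the other Kv genes that passed the filter in each tissue, 14 of 22 differed. Kcng2 had 1.91, 1.80 and 2.33 FPKM in cortex Con and 9.42, 13.7 and 13.4 in hippocampus Con, a log2 fold change of 2.12 (SE 0.140, adjusted p = 4.58e-06). Kcng1 gave 3.44, 5.42 and 5.81 against 10.3, 11 and 10.8 FPKM, a log2 fold change of 1.02 (SE 0.148, adjusted p = 0.000650). The third silent gene that was higher in hippocampus was Kcns2, with 6.73, 4.63 and 5.57 against 8.34, 8.05 and 7.81 FPKM (0.46, adjusted p = 0.0121). In the other direction, Kcnf1, the most abundant silent subunit, stood at 29.2, 30.8 and 30.9 FPKM in cortex and at 11.6, 11.7 and 13.9 in hippocampus, a log2 fold change of -1.23 (SE 0.0852, adjusted p = 5.95e-06). Kcns1 had 13.1, 9.40 and 11.2 against 4.21, 3.93 and 3.95 (-1.27, adjusted p = 2.57e-05). Kcnv1 had 21.8, 16.6 and 19.0 against 10.9, 13.6 and 11.5 (-0.63, adjusted p = 0.00218). In each of these 6 genes the tissues did not overlap (49.8% of all genes did not), so that subunits of the Kcns subfamily differed in opposite directions.

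The remaining silent subunits did not pass the test. Kcng3 had 1.41, 1.28 and 1.77 FPKM in cortex Con and 0.721, 0.796 and 1.32 in hippocampus Con, a difference of -0.36 in log2 terms (adjusted p = 0.0686), and without the third hippocampus Con library this became -0.49 with an adjusted p of 0.0138. Kcng4 had 2.89, 1.55 and 2.44 against 2.05, 1.61 and 2.22, with a 95% interval of the log2 fold change from -0.50 to 0.22. Kcns3 had 3.25, 3.34 and 2.95 against 2.95, 3.28 and 3.55, with an interval from -0.19 to 0.24.

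Kcnb2, a subunit of the delayed rectifier, was expressed at a low level (2.09 ± 0.466 FPKM in cortex Con against 1.62 ± 0.144 in hippocampus Con) and did not pass (adjusted p = 0.190).

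In the Kcna subfamily, 1 of 6 genes tested was higher in hippocampus and 3 were lower (19% and 17.3% of all genes). Kcna4, the subunit whose tail inactivates the channel quickly, was the higher gene, with 4.52, 5.21 and 5.22 FPKM in cortex Con and 9.84, 10.9 and 8.23 in hippocampus Con, a log2 fold change of 0.83 (SE 0.108, adjusted p = 0.000318). Kcna2, an axonal delayed rectifier, was lower, with 40.0, 35.3 and 38.9 against 21, 21.5 and 22.4, a log2 fold change of -0.79 (SE 0.0756, adjusted p = 4.39e-05). Neither gene overlapped between the tissues. Kcna6 (19.8 ± 0.337 against 12.1 ± 1.06 FPKM) and Kcna3 (3.41 ± 0.593 against 1.81 ± 0.167) were lower too, with log2 fold changes of -0.66 and -0.64. Kcna1 was 1.24 times as high in hippocampus but missed the threshold (adjusted p = 0.0560), and Kcna5, under 1 FPKM throughout, was not called either. The ratio of Kcna2 to Kcna1, which join in axonal channels, was 1.54 ± 0.161 in cortex Con and 0.699 ± 0.0238 in hippocampus Con (SD, n = 3).

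Of the Kcnc genes, which serve fast firing, Kcnc4 was lower in hippocampus (34.7 ± 2.56 against 23.3 ± 1.96 FPKM, log2 fold change -0.55, adjusted p = 0.00102). Kcnc1 and Kcnc2 did not pass (adjusted p = 0.0991 and 0.243), with log2 fold changes of -0.26 and -0.13.

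Of the 3 genes of the dendritic transient current, 2 were higher in hippocampus (19% of all genes were). Kcnd2 stood at 23.3, 19.2 and 23.3 FPKM in cortex Con and at 32.6, 37.5 and 38.2 in hippocampus Con, without overlap, a log2 fold change of 0.70 (SE 0.0979, adjusted p = 0.000499). Kcnd3 followed with 12.3 ± 0.563 against 18.3 ± 1.32 (0.53, adjusted p = 0.000741), and Kcnd1, the lowest of the subfamily, did not pass (-0.23, adjusted p = 0.126).

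Among the Kcnq genes, which carry the M current, Kcnq3 had 15.3 ± 2.41 FPKM in cortex Con against 13.4 ± 1.59 in hippocampus Con and did not pass (adjusted p = 0.320), nor did Kcnq5 (18.1 ± 4.23 against 21.3 ± 1.24, adjusted p = 0.226).

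The same comparison was made in the IR libraries, which the one above did not use. There, 28 of the 34 Kv genes tested passed, 10 higher and 18 lower in hippocampus, against 46.7% of all 14173 genes tested (23.7% higher and 23% lower). The 22 genes called in both comparisons had the same direction in each, which is 95.7% of those called in Con and 78.6% of those called in IR. Kcna1, Kcnb2, Kcnc1, Kcnh2, Kcnq3 and Kcnq5 were called in the IR libraries only, and Kcnh6 did not pass the filter in IR. In IR, Kcna5, Kcnh5 and Kcnh7 passed the filter through cortex alone, and without them 26 of 31 genes were called, 10 higher and 16 lower. Kcnh5 and Kcnh7 are among the 22. Of the 6 oligodendrocyte markers, 5 were lower in hippocampus in IR and 0 passed in Con, and their sums were 1306 to 1583 FPKM in cortex IR and 1001 to 1265 in hippocampus IR. Their part in the Kv values was not tested. The log2 fold changes in IR were 2.45 for Kcng2, 1.34 for Kcng1, -1.91 for Kcnh4, -1.43 for Kcns1 and -1.19 for Kcnf1. Whether any of these differed from the Con value is the question of the interaction given further on.

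**Figure D2:**
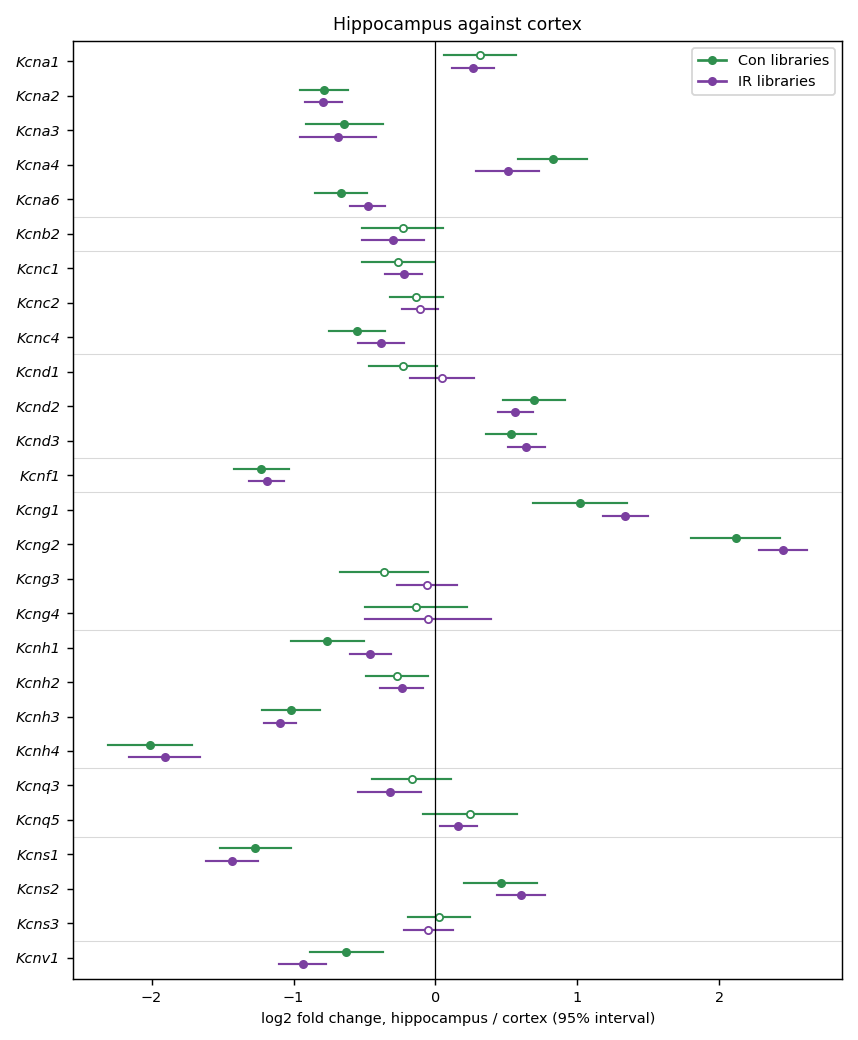
Log2 fold change of hippocampus against cortex on the log2(FPKM + 1) scale for Kv genes that were tested, with its 95% interval, in the Con libraries (green) and in the IR libraries (purple). Filled points have an adjusted p under 0.05; Kcng2 lies farthest to the right, and the Kcnh genes lie left of 0. Genes with fewer than 3 libraries at 0.5 FPKM or more in cortex or in hippocampus are left out.

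Summed over subfamilies, the total Kv level was 602 ± 50.7 FPKM in cortex Con and 557 ± 12.3 in hippocampus Con (SD, n = 3), with the second cortex library at 545 and the others at 643 and 618. Kcnh genes held 16.8% ± 0.388 of it in cortex Con and 8.89% ± 0.223 in hippocampus Con, and Kcnd genes 6.23% ± 0.280 and 10.2% ± 0.492. Kcng genes held 1.78% ± 0.255 and 4.62% ± 0.423, and Kcnf1 5.06% ± 0.554 and 2.22% ± 0.214. The silent subunits together made up 13.3% ± 0.356 and 11.8% ± 0.541. Smaller shifts were seen in Kcna genes (15.3% ± 0.251 and 13.8% ± 0.120), Kcns genes (3.32% ± 0.228 and 2.76% ± 0.0846) and Kcnv genes (3.17% ± 0.189 and 2.16% ± 0.219). Shares are descriptions and were not tested, and those of the other subfamilies are not reported here.

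**Figure D3:**
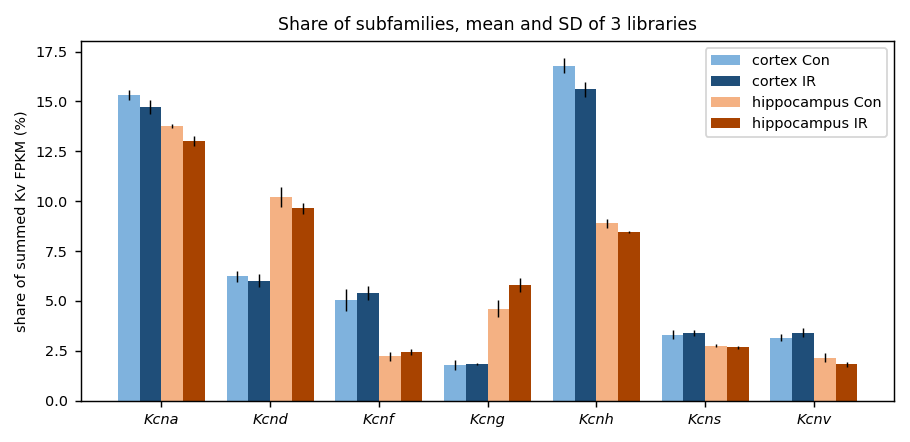
Share of 7 of the Kv subfamilies in the summed Kv FPKM (vertical axis, percent), as mean and SD of 3 libraries for each of the 4 groups. The Kcnh bars are higher in cortex and the Kcnd and Kcng bars higher in hippocampus. The Kcng share in hippocampus was 4.62% ± 0.423 in Con and 5.80% ± 0.343 in IR.

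On GRCm38 (GENCODE M21 annotation) the 40 genes lie on 16 chromosomes. Kcna1, Kcna5 and Kcna6 lie within 208 kb on chromosome 6, and Kcna2, Kcna3 and Kcna10 within 160 kb on chromosome 3. Exons of 9 of the 40, among them Kcna6, Kcnd3, Kcng2, Kcnh3, Kcnh7, Kcnq1 and Kcnq5, overlap exons of another annotated gene. The library kit was directional, and whether strand was used in the quantification is not given in the sources used here, so that reads of these genes and their partners may be mixed.

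The sequence before the start site is shown for 4 genes with clear regional differences and a single entry in the RefSeq promoter table (GRCm38.p6): the silent subunits Kcnf1 and Kcns1 and the elk subunit Kcnh4, which were lower in hippocampus, and Kcna4, which was higher. Each run is the 250 bases before the RefSeq start, 5′ to 3′ on the strand of the gene, and capitals mark a GC box (GGGCGG on either strand) or an E-box (CACGTG).
Kcnf1 (chr12:17176889-17177138, strand -): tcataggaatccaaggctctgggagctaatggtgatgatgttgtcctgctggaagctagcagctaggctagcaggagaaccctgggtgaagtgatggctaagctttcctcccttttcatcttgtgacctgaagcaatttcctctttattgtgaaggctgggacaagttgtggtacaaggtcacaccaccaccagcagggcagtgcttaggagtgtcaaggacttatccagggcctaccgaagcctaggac
Kcns1 (chr2:164171114-164171363, strand -): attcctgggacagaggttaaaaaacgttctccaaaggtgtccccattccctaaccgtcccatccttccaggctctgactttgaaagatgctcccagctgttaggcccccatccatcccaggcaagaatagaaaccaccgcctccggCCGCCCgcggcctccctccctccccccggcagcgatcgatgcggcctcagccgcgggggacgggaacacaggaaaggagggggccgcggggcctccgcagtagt
Kcnh4 (chr11:100759779-100760028, strand -): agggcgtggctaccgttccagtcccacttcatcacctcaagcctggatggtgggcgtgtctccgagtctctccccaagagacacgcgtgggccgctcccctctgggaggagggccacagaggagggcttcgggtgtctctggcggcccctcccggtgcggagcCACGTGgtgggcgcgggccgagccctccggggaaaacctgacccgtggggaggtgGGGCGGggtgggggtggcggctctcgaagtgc
Kcna4 (chr2:107290339-107290588, strand +): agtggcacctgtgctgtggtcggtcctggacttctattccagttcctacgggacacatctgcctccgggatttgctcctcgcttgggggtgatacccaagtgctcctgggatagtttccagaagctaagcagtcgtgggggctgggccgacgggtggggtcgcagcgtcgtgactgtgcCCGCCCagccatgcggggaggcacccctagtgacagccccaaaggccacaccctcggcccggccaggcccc
The GC content of these windows was 51.2% for Kcnf1, 63.2% for Kcns1, 70.8% for Kcnh4 and 65.2% for Kcna4, and the window of Kcnf1 held neither motif. The table held 25 of the 40 Kv genes. Over these the median GC content was 63.2%, against 52% for all entries, and 16 of the 25 held a GC box, against 32.9% of all 27025 windows of the same length. The E-box was found in 1 of the 25, Kcnh4 (6.05% of all windows). The letters TATAAA (13% of all windows), TGACGTCA (1.62%), TTATGTAA (0.862%) and GCGTGGGCG (0.54%), each searched on both strands, were in none of the 25. None of these motifs contains another, and such matches describe letters only. The window of Kcnh4 reaches into the GENCODE gene, whose first base is 100759942 on this strand.

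Irradiation was compared next, within each tissue. In the cortex, no Kv gene of the 35 tested passed at an adjusted p under 0.05 (limma, adjusted over 14065 genes), where 0.725% of all genes did. At an unadjusted p under 0.05 there were 3 (14.1% of all genes), all higher in IR (8.16% of all genes), and none of the 35 also had a ratio of means of at least 1.5 (1.87% of all genes). The silent subunit Kcnf1 was among the 3. It gave 29.2, 30.8 and 30.9 FPKM in Con and 32.5, 33.7 and 34.8 in IR, without overlap (0.15, adjusted p = 0.262).

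The groups did not overlap in cortex for 3 of the 35 Kv genes, among them Kcnf1 and Kcna5, the latter lower in IR at levels under 1 FPKM and past the filter through its Con libraries alone (20.3% of all genes do not overlap). The lowest log2 fold change of the 35 was -0.29 (Kcnh7). The median was -0.01 against 0.00 over all genes, and 17 were above 0. For 33 of the 35 the 95% interval on the log2(FPKM + 1) scale lay within a change of 1.5-fold in either direction, and Kcnh7 (-0.69 to 0.12) and Kcng4 (-0.25 to 0.65) were the others. The 33 include Kcna5 and Kcnh6, both under 1 FPKM and past the filter through Con alone. Their intervals understate the change in FPKM, where the ratios of means were 0.722 and 0.724. The second cortex Con library was the lowest of its group for 25 of 35 Kv genes. Without it, 7 genes had an unadjusted p under 0.05, and without the first Con library 6 did, while none passed the adjusted test in either case. This library also had the lowest sum of the cortical markers in its group (215 FPKM, against 233 and 266), whose part in the result was not tested.

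In the hippocampus, again none of the 31 Kv genes tested passed at an adjusted p under 0.05 (limma, adjusted over 14043 genes), where 0.0285% of all genes, 4 in number, did. At an unadjusted p under 0.05 there were 4 of 31 (13.9% of all genes), and none of these reached a ratio of means of 1.5 (1.73% of all genes). The silent subunit Kcng1 came nearest. Its levels were 10.3, 11 and 10.8 FPKM in Con and 16.8, 15.5 and 15.4 in IR, which leaves a gap between the groups wider than the spread within either. The ratio of means was 1.48, and the log2 fold change 0.53 (SE 0.0657, adjusted p = 0.0823), with an unadjusted p of 4.10e-05 in limma. Kcna4 differed in the other direction, with 9.84, 10.9 and 8.23 in Con and 5.66, 7.69 and 6.54 in IR, also without overlap, a ratio of 0.687 and a log2 fold change of -0.48 (SE 0.125, adjusted p = 0.247). Whether the genes passed depended on 1 library: without the third hippocampus Con library Kcng1 gave a log2 difference of 0.53 (adjusted p = 0.0195) and Kcna4 one of -0.58 (adjusted p = 0.0372). Across all 13 alternatives the adjusted p ran from 0.0195 to 0.573 for Kcng1 and from 0.0372 to 0.573 for Kcna4, and both were under 0.05 in that alternative only.

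Kcnh1 also had an unadjusted p under 0.05 in hippocampus, with 9.92, 12.2 and 11 FPKM in Con and 14, 13.1 and 12.4 in IR (0.23, adjusted p = 0.324). Its groups did not overlap, which was so for 11 of the 31 Kv genes in all (9 higher and 2 lower in IR), against 19.8% of all genes (10.5% higher and 9.36% lower). The 9 included Kcng1, Kcnh1, Kcna6, Kcnc1, Kcnd3, Kcng2 and Kcns2, and the 2 were Kcna4 and Kcnb2. The log2 fold changes of the 31 had a median of 0.07, against -0.01 over all genes, and 18 were above 0. For 28 of the 31 the 95% interval on the log2(FPKM + 1) scale lay within a change of 1.5-fold in either direction. The exceptions were Kcng1 (0.38 to 0.68), Kcna4 (-0.77 to -0.20) and Kcng4 (-0.07 to 0.64). Without the third Con library 7 genes had an unadjusted p under 0.05, and without the first IR library 2 did.

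Across the silent subunits, 0 of 9 passed the adjusted test in either tissue. In limma 1 had an unadjusted p under 0.05 in each (Kcnf1 in cortex and Kcng1 in hippocampus). That is 11.1% in each tissue, beside 14.1% of all genes in cortex and 13.9% in hippocampus. The log2 fold change was above 0 for 6 of 9 in cortex and for 7 of 9 in hippocampus, and the share of all genes above 0 was not counted. Kcng2 in hippocampus stood at 9.42, 13.7 and 13.4 FPKM in Con and 14.6, 14.2 and 13.9 in IR, where the first Con library was the low one (0.23, adjusted p = 0.440). Kcnf1 in hippocampus stood at 11.6, 11.7 and 13.9 in Con and 14.2, 15 and 13.4 in IR (0.18, adjusted p = 0.376). The summed Kcng level was 25.8 ± 2.89 FPKM in hippocampus Con and 33.9 ± 1.97 in hippocampus IR (SD, n = 3), and in cortex 10.7 ± 1.45 and 11.5 ± 0.351. The summed silent level was 80.1 ± 4.70 and 87.9 ± 2.63 in cortex, and 65.6 ± 4.40 and 74.5 ± 2.34 in hippocampus. Kcns1 in hippocampus had 4.21, 3.93 and 3.95 in Con and 4.19, 4.26 and 3.82 in IR, and Kcnv1 had 10.9, 13.6 and 11.5 in Con and 10.1, 11.5 and 10.5 in IR. Neither pair of groups was separate.

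**Figure D4:**
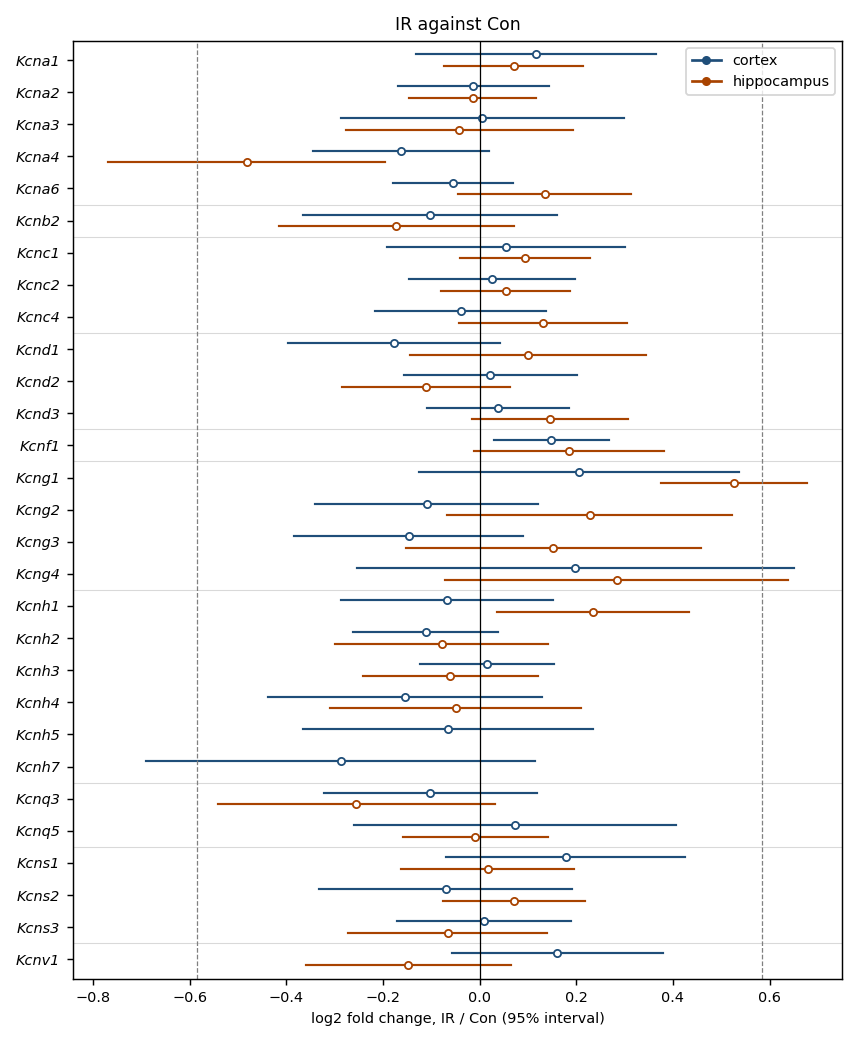
Log2 fold change of IR against Con on the log2(FPKM + 1) scale for Kv genes that were tested, with its 95% interval, in cortex (blue) and hippocampus (orange). Dashed lines mark a change of 1.5-fold, and all points are open because no adjusted p is under 0.05; Kcng1 and Kcna4 in hippocampus lie farthest from 0. Kcna5 and Kcnh6 are left out in cortex, since they passed the filter through Con alone.

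**Figure D5:**
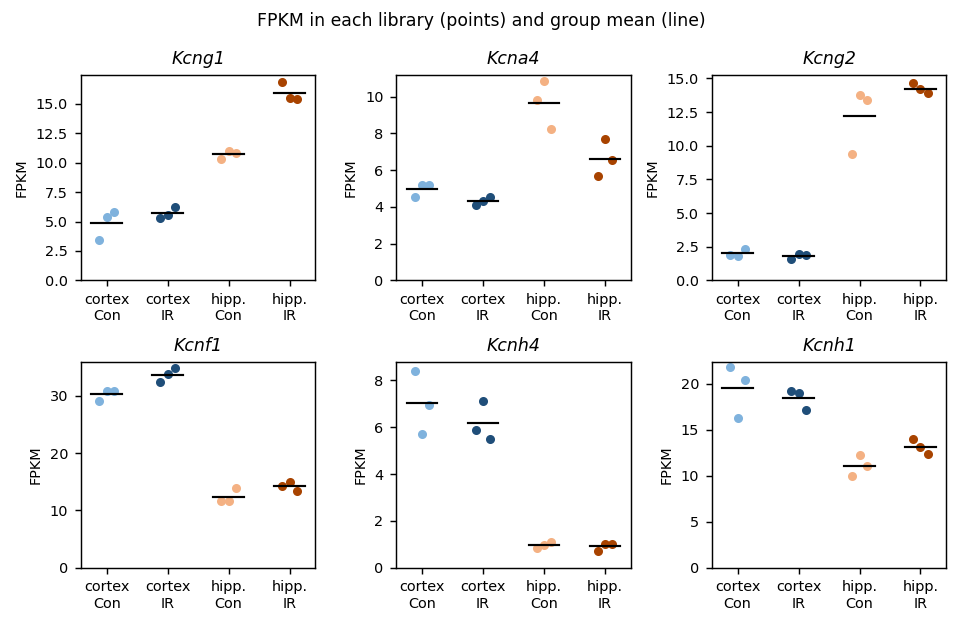
FPKM of 6 Kv genes in each library (points) with the mean of each group (line), from 0 upward. Hippocampal Kcng1 is higher and Kcna4 lower in the IR points than in the Con points without overlap, while Kcng2, Kcnf1 and Kcnh4 separate mainly by tissue.

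Whether the change after irradiation differed between the tissues was tested as an interaction over the 12 libraries. None of the 35 Kv genes passed at an adjusted p under 0.05 (limma, adjusted over 14577 genes), where 0.0823% of all genes did, and none had an unadjusted p under 0.05, where 10.3% of all genes did. The smallest unadjusted p was 0.0518 for Kcnh1, whose interaction came to 0.30 in log2 terms (adjusted p = 0.491 in limma). For Kcng1 the interaction was 0.32 (95% interval -0.07 to 0.71, adjusted p = 0.549). Its cortex values were 3.44, 5.42 and 5.81 in Con and 5.27, 5.56 and 6.24 in IR, with the first Con library the lowest. For Kcna4 the interaction was -0.32 (-0.65 to 0.01, adjusted p = 0.501), and its cortex values were 4.52, 5.21 and 5.22 in Con and 4.12, 4.33 and 4.55 in IR. A difference between the tissues was thus not shown for either gene. Without the third hippocampus Con library, 5 genes had an unadjusted p under 0.05 and none an adjusted one.

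Marker lists of other cells were set beside the irradiation results. No marker of the lists for GABA neurons, excitatory neurons, astrocytes, oligodendrocytes, microglia, endothelium or choroid plexus passed at an adjusted p under 0.05 in either tissue. In hippocampus the GABA sums were 359 to 509 FPKM in Con and 405 to 437 in IR, and the excitatory sums 1793 to 1982 and 1835 to 1937. Within the GABA list, Slc32a1 (26.8 ± 1.23 against 24.0 ± 0.884) and Gad2 (30.2 ± 1.24 against 28.0 ± 0.672) were lower in IR without overlap, and the others overlapped. The hippocampal marker Prox1 was higher in IR without overlap (15.9 ± 1.30 against 19.8 ± 1.15), and the others of its list overlapped. Of all genes 19.8% did not overlap. The choroid plexus markers varied within groups, from 23.1 to 1069 in hippocampus Con and 24.3 to 1660.4 in hippocampus IR, with the second Con and the first IR library high. In hippocampus the 4 microglia markers summed to 39.7 to 44.6 in Con and 30.4 to 33.9 in IR, and the 4 endothelial markers to 36.2 to 42.4 and 46.3 to 48.0, neither overlapping. In cortex the microglia sums were 38.8 to 43.0 and 30.2 to 40.0, which overlapped, and the endothelial sums 39.4 to 47.9 and 50.3 to 59.7, which did not. Nor did the cortex sums of the oligodendrocyte markers overlap (1050.2 to 1302 in Con and 1306 to 1583 in IR) or those of the striatal markers (76.5 to 82.4 and 83.3 to 86.9). The part of these markers in the Kv values was not tested.

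Auxiliary subunits, which bind the alpha subunits and set their traffic and gating, also differed between the tissues. In Con, 11 of the 15 listed were tested and 11 passed (36.3% of all genes), 5 higher and 6 lower in hippocampus. Dpp10, a partner of Kcnd channels, had 47.7, 42.0 and 48.5 FPKM in cortex against 9.56, 8.65 and 10.2 in hippocampus (log2 fold change -2.17, adjusted p = 3.42e-07), whereas Dpp6, of the same kind, had 58.2, 66.0 and 59.7 against 110.2, 107 and 109 (0.82, adjusted p = 3.98e-05). The Kcnd partners Kcnip2 (0.87), Kcnip1 (-0.80), Kcnip3 (-0.86) and Kcnip4 (-0.36) were split in the same way, with the first higher in hippocampus and the others lower. Of the beta subunits of Kcna channels, Kcnab1 and Kcnab2 were higher (0.85 and 0.68) and Kcnab3 was lower (40.9 ± 11.4 against 10.5 ± 1.22 FPKM, -1.83). Kcne1l was higher (0.49) and the Kcnb partner Amigo1 was slightly lower (-0.21, adjusted p = 0.0365). In the IR comparisons 0 of 11 passed in either tissue (limma), with 1 unadjusted p under 0.05 in cortex (Kcnip2, 0.31, adjusted p = 0.237) and 2 in hippocampus (Kcnip2, 0.19, and Kcnab3, -0.25). These are 9.09% and 18.2% of the 11, beside 14.1% and 13.9% of all genes.

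Genes that cluster Kv channels on the membrane were tested in full. Of 9, 4 passed between the tissues in Con, a share of 44.4% beside 36.3% of all genes. Lgi1 (37.6 ± 0.917 against 62.4 ± 4.35 FPKM, log2 fold change 0.71), a secreted partner of Kcna channels, and Cntnap2 (0.25), which holds Kcna channels beside the node, were higher in hippocampus, and the scaffold Dlg1 (40.3 ± 3.11 against 20.8 ± 1.18, -0.92) and Cntn2 (-0.42), the partner of Cntnap2, were lower. After irradiation 0 of 9 passed in either tissue (limma), with 1 unadjusted p under 0.05 in cortex (Cntn2, 0.15) and 0 in hippocampus, where 14.1% and 13.9% of all genes had one.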

How the data were processed

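RNA of cortex and hippocampus was sequenced in 12 libraries, 3 for each of 4 groups, which were assigned from the labels. The deposited values are FPKM per gene that the authors made with TopHat and Cufflinks after trimming with FASTX_Trimmer and BBMap, with a geometric normalization in edgeR. The labels name mm10, and the annotation is not given in the sources used here. The labels name Trizol and total RNA, whereas the methods of the study give poly(A) selection after extraction with an RNeasy kit, and which of them holds for these libraries was not settled. No reads or counts were used, so no counting interval is given.

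A gene entered a fit if 3 or more of its libraries reached 0.5 FPKM, and was tested on log2(FPKM + 1) in limma 3.58.1 (R 4.3.3) with trend and robust prior, and p-values were adjusted over all genes tested by Benjamini-Hochberg. The call was an adjusted p under 0.05. For IR against Con, an unadjusted p under 0.05, alone or with a ratio of means of at least 1.5, was also counted. The fit was tested on simulated data. Summaries used Python 3.11.15 and pandas 2.3.3, and figures matplotlib 3.10.9.

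Genes were given in full by rule: the 14 largest regional differences called in Con, those with an unadjusted p under 0.05 after irradiation, the highest gene of each subfamily, and the silent subunits past the filter. Genes outside the rule were named after their values were seen. Some genes are not reported here. The members and lists were chosen with earlier results of these data known. Alternatives were another pseudocount (0.1), other filters, quantile normalization, plain moderation, a fit of all 12 libraries, a replicate block and leaving out each library. Gene positions came from GENCODE M21 and promoter sequences from RefSeq.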

Additional observations from a re-analysis of the deposited data

How the results depend on the processing

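The count of Kv genes called between the tissues was 23 in Con (with the 3 Kcnh genes that entered through cortex alone) and ranged from 19 to 27 over other settings, and from 22 to 25 with 1 library left out. In IR it was 28, and ranged from 25 to 28 and from 22 to 27. For irradiation, 0 genes passed the adjusted test in cortex under every setting run, and 3 did by an unadjusted p under 0.05, a count that ranged from 2 to 7 with 1 library left out. In hippocampus the adjusted count was 0 and ranged from 0 to 2 with 1 library left out, and 4 genes passed by an unadjusted p under 0.05, a count of 2 to 7 with 1 library left out. With library number as a replicate block it was 2. The same-numbered libraries did not deviate together: correlations ran from -0.04 to 0.20 between the tissues in Con and from -0.39 to -0.09 in hippocampus, so the numbers were not taken to pair samples, and with this replicate block the regional count in Con was 24. The interaction had 0 unadjusted p under 0.05, with 1 at a minimum of 1 FPKM in every library, 2 under quantile normalization, and 0 to 5 with 1 library left out. The cause was not tested.

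Kcns3 changed sign between the tissues in Con when a library was left out, over a range of -0.0232 to 0.0790 on the log2 scale, and was called in none of these fits. Of 409 refits of single genes, 402 kept direction and side of the threshold, 5 passed it anew (Kcng1 and Kcna4 as given, and Kcng3 in 3 fits, with an adjusted p of 0.0138 to 0.0319) and 2 were these changes of sign. FPKM without counts give no depth per value, which limits genes under 1 FPKM most.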

Other observations

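Potassium channel pores other than the Kv alpha subunits (inward rectifiers Kcnj, leak channels Kcnk, calcium- and sodium-activated channels) also differed between the tissues. In Con, 28 of the 37 listed were tested and 14 passed (limma, 36.3% of all genes), 4 higher and 10 lower in hippocampus, with a median log2 fold change of -0.15. The sodium-activated channel Kcnt1 had 33.3, 26.9 and 25.8 FPKM in cortex Con against 6.62, 5.31 and 9.02 in hippocampus Con (log2 fold change -1.91, adjusted p = 4.17e-05). The leak channel Kcnk3 had 11.7, 11 and 10.6 against 3.30, 3.39 and 3.74 (-1.44, adjusted p = 2.22e-06). Subunits of G-protein-gated channels went opposite ways: Kcnj9 had 68.3, 66.5 and 65.9 against 34.0, 30.5 and 25.7 (-1.14, adjusted p = 2.43e-05), and Kcnj6 had 16.4, 11.9 and 15.6 against 33.4, 33.2 and 30.8 (1.11, adjusted p = 6.18e-05). Kcnj3, of the same kind, was slightly higher in hippocampus (33.5 ± 2.48 against 39.5 ± 1.90 FPKM, 0.23, adjusted p = 0.0499 in limma). The tissues did not overlap in any of these genes. Kcnma1, the large-conductance calcium-activated channel, was lower (-0.94, adjusted p = 0.000511).

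After irradiation 0 of the 28 passed at an adjusted p under 0.05 in either tissue (limma), and 4 in cortex and 6 in hippocampus had an unadjusted p under 0.05 (14.1% and 13.9% of all genes). Among these, the inward rectifier Kcnj4 had 35.2, 34.8 and 34.7 FPKM in hippocampus Con and 24.9, 30.1 and 28.6 in IR (-0.32, adjusted p = 0.240), and 59.2, 62.2 and 55.8 and 49.5, 50.3 and 55.5 in cortex (-0.19, adjusted p = 0.231). Its groups did not overlap in either tissue. Kcnj13, expressed in choroid plexus, ranged from 0.103 to 13.4 FPKM over the 12 libraries, and its auxiliary neighbour in that tissue, Kcne2, from 0.0373 to 8.08, highest in the same library of hippocampus IR, the first.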
